A study of Mus musculus with 13 samples.

Results

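The cytosolic ribosomal proteins were followed in the transcriptome of mature CD4 single-positive (CD4SP) thymocytes, before and after 4 h of stimulation through the T cell receptor (TCR). The set was defined by gene symbol alone and comprised 84 protein-coding genes of 35906 annotated genes, of which 32 encode proteins of the small (40S) subunit, 49 proteins of the large (60S) subunit and 3 proteins of the P-stalk. Mitochondrial ribosomal proteins and the ribosomal protein fusion Fau lie outside this definition. The series holds 13 bulk RNA-seq libraries, each from 1 mouse, of FACS-sorted CD69-MHCI+ (M2) CD4SP thymocytes, the most mature thymic stage. All mice carried the Lm54 transgenic TCR, which recognizes a listeriolysin O (LLO) peptide on I-Ab, on a Rag1-/- and C57BL/6J background, and the methods of the study give 8 to 12 weeks as the usual age, with animals of both sexes. Control mice (labelled WT) carried Ctsl fl/fl alleles, and CtslΔTEC mice combined a conditional Ctsl allele with Foxn1-cre, so that cathepsin L was deleted in thymic epithelial cells and not in the sequenced thymocytes. Unstimulated cells came from 4 WT mice (mice 1 to 4) and 5 CtslΔTEC mice (mice 1 to 5). Stimulated cells came from 2 WT mice (mice 5 and 6) and 2 CtslΔTEC mice (mice 6 and 7) and had been kept for 4 h in HL-1 serum-free medium with plate-bound LLO:I-Ab monomer at 1 µg/ml and soluble anti-CD28 at 250 ng/ml. No culture of the unstimulated cells is described, so stimulation and the hours in culture cannot be told apart.

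Each ribosome carries 1 copy of nearly every ribosomal protein, and the 40S subunit decodes the mRNA while the 60S subunit forms the peptide bond. The P-stalk, built on the 60S subunit from Rplp0, Rplp1 and Rplp2, recruits and activates the GTPase elongation factors. Most ribosomal protein mRNAs are 5′ TOP mRNAs, which begin with a C followed by a run of pyrimidines and whose translation is switched on by mTORC1 through Larp1 and the 4E-BP proteins. A T cell that leaves quiescence enlarges its nucleolus, transcribes ribosomal RNA and assembles new ribosomes before it divides, with Myc as a main transcriptional driver. Several ribosomal proteins have paralogues that are used in particular tissues or in ribosome assembly.

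The libraries differed in depth, with 25692380 to 39127833 estimated counts in unstimulated cells and 27184520 in stimulated WT mouse 6, against 8085463 in stimulated WT mouse 5 and 11792192 and 16866027 in stimulated CtslΔTEC mice 6 and 7. The early activation gene Cd69 rose from 43.3 to 64.9 counts per 1000000 (CPM) in the 9 unstimulated libraries to 2669.6 to 3378 CPM in the 4 stimulated ones. All 8 T cell markers examined were detected, with summed levels of 5458 to 6514 CPM without and 3918 to 4392 CPM with stimulation. The summed markers of B cells reached at most 1.54 CPM and those of myeloid cells 21.1 to 40.1 CPM. Erythroid markers were at 43.2 to 174 CPM without and 2.71 to 18.8 CPM with stimulation, markers of thymic epithelial cells at 2.86 to 5.37 and 11.3 to 15.8 CPM, and a list of 10 activation genes at 576 to 1193 and 12747 to 15585 CPM. Of the 6 thymic epithelial genes listed, 3 passed the count filter, so their sum rests on few genes at low levels. The part of these other cell types in the results below was not tested. Dates carried by the deposited files split the unstimulated libraries into a first group (CtslΔTEC mice 1 and 3 and WT mouse 4) and a second group of the other 6, and all 4 stimulated libraries share the third date, so this date cannot be told apart from stimulation. Unstimulated WT mouse 4 and stimulated WT mouse 5 stood above their groups in the level of most ribosomal protein genes.

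The ribosomal protein genes formed an abundant class of mRNA in these cells. On the scale of transcripts per 1000000 (TPM), which corrects for transcript length, Rplp1 stood highest with a mean of 9550.5 TPM over the 13 libraries, followed by Rps14 (8302 TPM), Rps27 (8211 TPM) and Rpl13a (7197 TPM). Of the 82 members kept by the count filter, 68 exceeded 1000 TPM, and the median was 2042 TPM. The 10 highest members held 30.6% of the class. At the other end were the paralogues Rpl7l1 (95.9 TPM), Rps27l (127 TPM) and Rpl39l (1.00 TPM), together with Rpl5 (117 TPM) and Rpl12 (289.9 TPM). For Rpl5 and Rpl12, look-alike genes held most of the combined counts of gene and look-alikes, as described with the departures. The remaining 2 members were not kept by the filter. Rpl10l, an autosomal copy known from testis, had 0 counts in every library, and Rpl3l, a striated muscle paralogue, had 6 counts over all libraries.

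Stimulation left the share of the transcriptome given to ribosomal protein genes within the spread between mice. The 84 genes took 20.00, 18.9, 18.8 and 22.2% of all TPM in unstimulated WT mice 1 to 4 and 19.4, 15.9, 18.4, 19.2 and 18.6% in unstimulated CtslΔTEC mice 1 to 5. In stimulated cells the shares were 22.4 and 18.6% in WT mice 5 and 6 and 18.97 and 19.8% in CtslΔTEC mice 6 and 7. The groups overlapped, with the highest values in unstimulated WT mouse 4 and stimulated WT mouse 5 and the lowest in unstimulated CtslΔTEC mouse 2. Means were 19.04% ± 1.64 (SD, n = 9) without and 19.9% ± 1.70 (SD, n = 4) with stimulation, a log2 ratio of 0.066 that fell to 0.0061 without stimulated WT mouse 5. As a share of protein-coding nuclear genes alone, the members took 23.9% ± 1.41 (SD, n = 9) and 23.1% ± 2.05 (SD, n = 4), a log2 ratio of -0.052 and thus of opposite sign. The ratio of summed 40S to summed 60S TPM was 1.08 to 1.13 in unstimulated and 1.06 to 1.10 in stimulated libraries. These ranges overlapped through unstimulated WT mouse 4 alone, and the other 8 unstimulated libraries, at 1.10 to 1.13, all stood above the 4 stimulated ones.

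**Figure D1:**
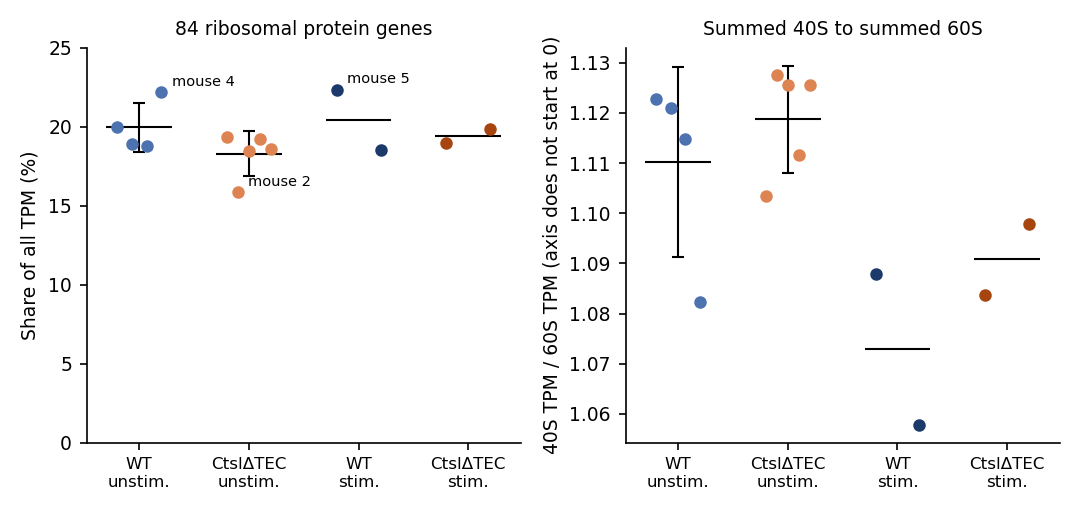
Left, share of all TPM held by the 84 ribosomal protein genes, in percent, with 1 point per mouse. Right, summed 40S TPM divided by summed 60S TPM, on an axis that does not start at 0. Lines mark group means, error bars mark the SD for groups of 4 and 5 mice, and the 4 groups overlap in the left panel, where the values run from 15.9% to 22.4%.

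At the level of single genes, stimulation was accompanied by small rises in 46 of 82 members, in a transcriptome of which 77.5% of the tested genes were called. With edgeR's quasi-likelihood test, scaling by the trimmed mean of M values (TMM) and a Benjamini-Hochberg adjusted p threshold of 0.1 over all 14241 genes tested, these were the members called, and 0 fell, where 37.2% of all genes rose and 40.3% fell. Of the 36 members not called, 26 had positive values. The median log2 difference of the members was 0.21, against -0.038 over all genes. Among 40S members 14 of 32 rose, among 60S members 30 of 47, and among the P-stalk genes Rplp0 and Rplp2, but not Rplp1 (0.11 on the log2 scale, SE 0.11, adjusted p = 0.396). Rps6, the substrate of S6 kinase, was at 1150.5 to 1418 CPM in unstimulated and 1182 to 1583 CPM in stimulated libraries, which overlap, with a log2 difference of 0.11 (SE 0.077, adjusted p = 0.2). Rpl11, which joins the 60S subunit together with Rpl5 and the 5S rRNA and can bind Mdm2, rose by 0.47 (SE 0.11, adjusted p = 0.00109).

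The size of this common rise depended on how libraries were scaled and on 1 mouse. Scaled to library totals alone, the median over all genes was -0.16 on the log2 scale, and 28 members rose and 6 fell. Without stimulated WT mouse 5, 27 members rose and 5 fell, and the members' median was 0.10. Relative to the mean of the unstimulated libraries, the median member of stimulated WT mice 5 and 6 stood at 0.46 and 0.070 on the log2 scale and that of stimulated CtslΔTEC mice 6 and 7 at 0.18 and 0.27, while unstimulated WT mouse 4 stood at 0.35. The 2 stimulated WT mice thus lay further apart than the median response of 0.21. Among the called members, values ran from 0.16 (Rpl23a) to 1.53 (Rpl7l1), and those not called included Rpl39l at -0.46 (SE 0.99, with 150 counts in all), Rpl13a at -0.17 and Rps28 at 0.33.

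Of the members, 9 (against 24.5% of all genes) had all 4 stimulated libraries above all 9 unstimulated ones, namely Rpl7l1, Rps27l, Rpl36al, Rpl22l1, Rpl12, Rpl5, Rps2, Rpl10a and Rpl15. Without unstimulated WT mouse 4 there were 23 (against 25.3% of all genes), and without stimulated WT mouse 6 there were 15 (against 25.7%). No member had them below, where 28.6% of all genes did. The 6 members with the largest rises were Rpl7l1, Rpl12, Rps27l, Rpl5, Rpl36al and Rpl22l1, and 4 of them are paralogues of another member.

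Rpl7l1, the relative of Rpl7 that acts in early 60S assembly, was at 89.7, 89.6, 86.1 and 82.9 CPM in unstimulated WT cells and 69.8, 79.6, 86.8, 93.7 and 86.2 CPM in unstimulated CtslΔTEC cells. After stimulation it reached 270.3 and 216 CPM in WT and 247 and 253 CPM in CtslΔTEC cells, every stimulated library standing above every unstimulated one. This was a 2.90-fold rise (log2 1.53, SE 0.075, adjusted p = 6.15e-11), the largest of the members. Rps27l, a relative of Rps27 known as a p53 target, stood at 19.2, 17.3, 21.6 and 19.99 CPM in unstimulated WT and 12.01, 15.3, 14.04, 17.5 and 18.1 CPM in unstimulated CtslΔTEC cells. It was at 55.1 and 32.97 CPM in stimulated WT and 35.6 and 32.2 CPM in stimulated CtslΔTEC cells. Stimulated WT mouse 5 was the highest and no library overlapped the other state (log2 1.15, SE 0.13, adjusted p = 8.98e-07).

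Rpl36al, which encodes a near copy of the Rpl36a protein, was at 125, 125, 121 and 168 CPM in unstimulated WT and 116, 102, 105.8, 116 and 126 CPM in unstimulated CtslΔTEC cells, and at 239 and 186 CPM in stimulated WT and 214 and 196 CPM in stimulated CtslΔTEC cells. Unstimulated WT mouse 4 came closest to the stimulated libraries without reaching them (log2 0.75, SE 0.093, adjusted p = 2.86e-06). For Rpl22l1, the relative of Rpl22 that has been studied in T cell development, unstimulated values were 117, 105, 104 and 153 CPM in WT and 97.5, 97.1, 90.5, 106.3 and 109.9 CPM in CtslΔTEC cells, and stimulated values 166 and 156 CPM in WT and 183 and 196 CPM in CtslΔTEC cells. The groups did not overlap, but unstimulated WT mouse 4 and stimulated WT mouse 6 were close (log2 0.67, SE 0.092, adjusted p = 8.1e-06). Rps2, a 40S protein at the mRNA entry channel that was singled out after its values were seen, was at 956 to 1448 CPM in unstimulated libraries and 2368, 1475, 1571 and 1808 CPM in the 4 stimulated ones. The states did not overlap, and stimulated WT mouse 6 lay just above the highest unstimulated library (log2 0.62, SE 0.11, adjusted p = 0.000121).

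Other members rose by less. Rps14, a 40S protein at the platform of the subunit, was at 1469 to 2469 CPM in the unstimulated and 3336, 2082, 2515 and 2728 CPM in the 4 stimulated libraries, in the order WT mice 5 and 6 and CtslΔTEC mice 6 and 7. These ranges overlap through unstimulated WT mouse 4 alone, without which the highest unstimulated library was at 2037 CPM, and the rise was called (log2 0.48, SE 0.13, adjusted p = 0.00306). Rpl15, a 60S protein needed for rRNA processing, was at 418 to 605 CPM without and 833, 669, 610.5 and 670.0 CPM with stimulation, with no overlap (log2 0.43, SE 0.072, adjusted p = 6.56e-05). Genes that share at least 50% of their 31-base words with it held 21.0% of its combined counts, and with them added the states, at 544 to 849 and 758 to 1062 CPM, overlapped while the rise was called (log2 0.39, adjusted p = 0.00124). In the P-stalk, Rplp2 was at 451 to 788 and 715 to 881 CPM and Rplp1 at 1402 to 2079.5 and 1581 to 2179.5 CPM. Both overlapped, and the rise was called for Rplp2 (log2 0.34, SE 0.13, adjusted p = 0.0296).

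To separate single members from the common movement, the same contrast was fitted with the summed counts of the 84 genes as library size, so that a value gives a gene's change relative to the ribosomal pool. By this measure 19 of 82 members rose and 8 fell, where 28.2% of all genes rose and 44.7% fell relative to the pool. In the simulation of this test, false calls (38 among 14241 genes) outnumbered the changed members recovered. How many of the false calls were members was not counted. The largest departures upwards were Rpl7l1 (1.32, SE 0.11), Rpl12 (0.99, SE 0.11), Rps27l (0.92, SE 0.13), Rpl5 (0.77, SE 0.12), Rpl36al (0.55, SE 0.085) and Rpl22l1 (0.48, SE 0.094), with adjusted p of at most 0.000235. Rps14 (0.26), Rpl11 (0.27) and Rpsa (0.26), a 40S protein also described as a laminin receptor, rose by less. The departures downwards were smaller than the largest upward ones and included Rpl13a (-0.38, SE 0.083), Rps4x (-0.31, SE 0.093), Rps9 (-0.30, SE 0.079), Rps7 (-0.29, SE 0.082) and Rps3a1 (-0.27, SE 0.088), with adjusted p of at most 0.0132. Of the 8 that fell, 6 encode 40S proteins (the 8 include Rps26 and Rpl17, which lie outside the naming rule).

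Per 1000000 counts of the pool, Rpl13a, a 60S protein that is also known for translational silencing outside the ribosome, took 34592, 30328, 35969 and 38345 in unstimulated WT and 35525, 32905, 34915, 34902 and 35032 in unstimulated CtslΔTEC cells. In stimulated cells it took 28494 and 27333 in WT and 25251 and 26136 in CtslΔTEC, all below the unstimulated values. Among the others, Rps4x, which is encoded on the X chromosome, took 23882 to 32368 without and 21976 to 23410.4 with stimulation, and Rps9 took 17163 to 20451 and 14418 to 16077, both without overlap. For Rps3a1 the ranges, at 24316 to 30391 and 22058 to 24438, overlapped. On this scale 7 members (against 29.9% of all genes) had every stimulated library below every unstimulated one, and 14 members (against 16.3% of all genes) had them above. On the TMM scale the values of Rpl13a overlapped between states and the change was not called (log2 -0.17, adjusted p = 0.206), but with the counts of protein-coding transcripts alone it was called lower on that scale too (log2 -0.29, adjusted p = 0.0342).

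**Figure D2:**
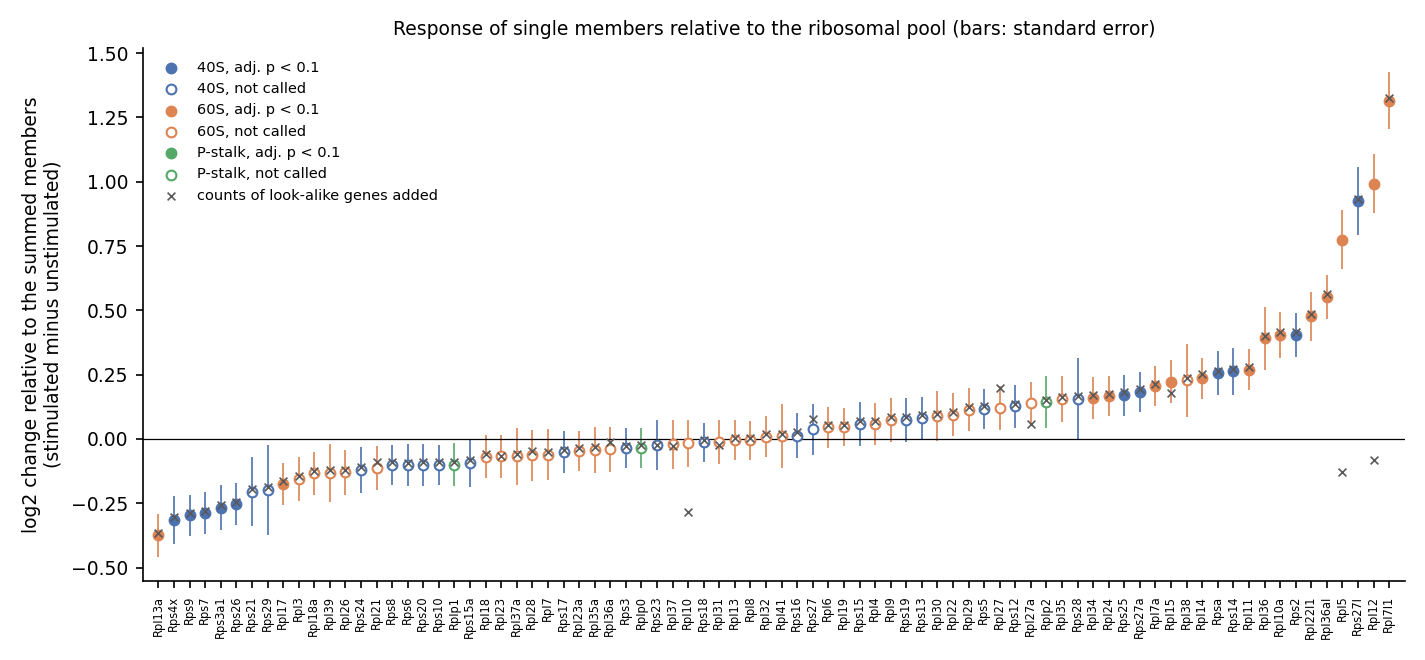
Log2 change of single members relative to the summed ribosomal protein genes, stimulated minus unstimulated, with standard errors, ordered by size. Not every member is drawn. Filled points passed the adjusted p threshold of 0.1, colours mark the subunit, and crosses give the value after the counts of look-alike genes were added. Rpl7l1 and Rps27l keep their place under this change, while Rpl5 and Rpl12 drop from 0.77 and 0.99 to -0.13 and -0.081.

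Reads of ribosomal protein genes are hard to place, since the mouse genome holds many processed copies of them, so counts were also formed in other ways, chosen after the data had been seen. In the transcript sequences of the annotation, 313 genes outside the set, 303 of them pseudogenes, shared at least 50% of their 31-base words with 1 of 71 members. For most members these look-alikes held few counts, but they took 95.7% of the combined counts of Rpl5 (mainly Gm15500), 90.2% of those of Rpl12 (mainly Gm10275), 61.2% of those of Rpl27a, 51.6% of those of Rps23 and 46.6% of those of Rpl10. With look-alikes added, Rpl5, the 5S rRNA-binding partner of Rpl11, was at 1496 to 2058 CPM in unstimulated and 1585 to 2080.4 CPM in stimulated libraries, which overlap (log2 0.081, adjusted p = 0.383). Rpl12, at the base of the P-stalk, was at 1126 to 1804 and 1366 to 1699 CPM and also overlapped (log2 0.12, adjusted p = 0.257). In the counts as deposited, the rises of both genes cannot be told apart from a shift of reads between a gene and its copies. A further version kept the counts of protein-coding transcripts alone. In it Rpl10a, a protein of the L1 stalk, no longer had a called response (log2 0.094, adjusted p = 0.196, against 0.61) or departure (-0.11, adjusted p = 0.272, against 0.40), and the departure of Rpl5 was not called (0.25, adjusted p = 0.142). Rpl10, a late-joining 60S protein, departed downwards once look-alikes were added (-0.29, adjusted p = 0.031). Under all 4 ways of counting, 15 members departed upwards and 7 downwards. The 15 include Rpl7l1, Rps27l, Rpl36al, Rpl22l1, Rps2, Rps14, Rpl11, Rpsa and Rpl15, and the 7 include Rpl13a, Rps4x, Rps9, Rps7, Rps3a1 and Rps26.

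The paralogues could be set against their partners on the TPM scale, which cancels the scaling of the library. Rpl7l1 per 100 Rpl7 was 3.54, 2.83, 3.35 and 2.82 in unstimulated WT and 2.73, 2.83, 3.55, 3.45 and 3.68 in unstimulated CtslΔTEC cells, and 8.40 and 8.73 in stimulated WT and 9.91 and 9.28 in stimulated CtslΔTEC cells. The ratio was 3.20 ± 0.388 (SD, n = 9) in unstimulated and 9.08 ± 0.662 (SD, n = 4) in stimulated libraries, with no overlap. Rpl7 itself was not among the members that departed from the pool (-0.061, adjusted p = 0.609). Rps27l per 100 Rps27 was 1.21 ± 0.228 (SD, n = 9) in unstimulated and 2.29 ± 0.513 (SD, n = 4) in stimulated libraries, with ranges of 0.755 to 1.61 and 1.74 to 2.98. For Rpl22l1 per 100 Rpl22 the ratio was 38.8 ± 3.22 (SD, n = 9) in unstimulated and 50.6 ± 3.70 (SD, n = 4) in stimulated libraries, and for Rpl36al per 100 Rpl36a 43.7 ± 3.57 (SD, n = 9) in unstimulated and 65.7 ± 4.25 (SD, n = 4) in stimulated libraries. All 4 of these ratios were higher in every stimulated library than in any unstimulated one. The exception was Rpl39l, a paralogue of Rpl39 known from testis, which had 150 counts over all libraries and overlapped, with at most 0.343 per 100 Rpl39 in unstimulated and 0.152 in stimulated libraries. Even after stimulation Rpl7l1 and Rps27l remained minor forms, whereas Rpl36al reached 59.4 to 68.3 per 100 Rpl36a. Look-alike genes held 17.1% of the combined counts of Rpl36a and are left out of this ratio.

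**Figure D3:**
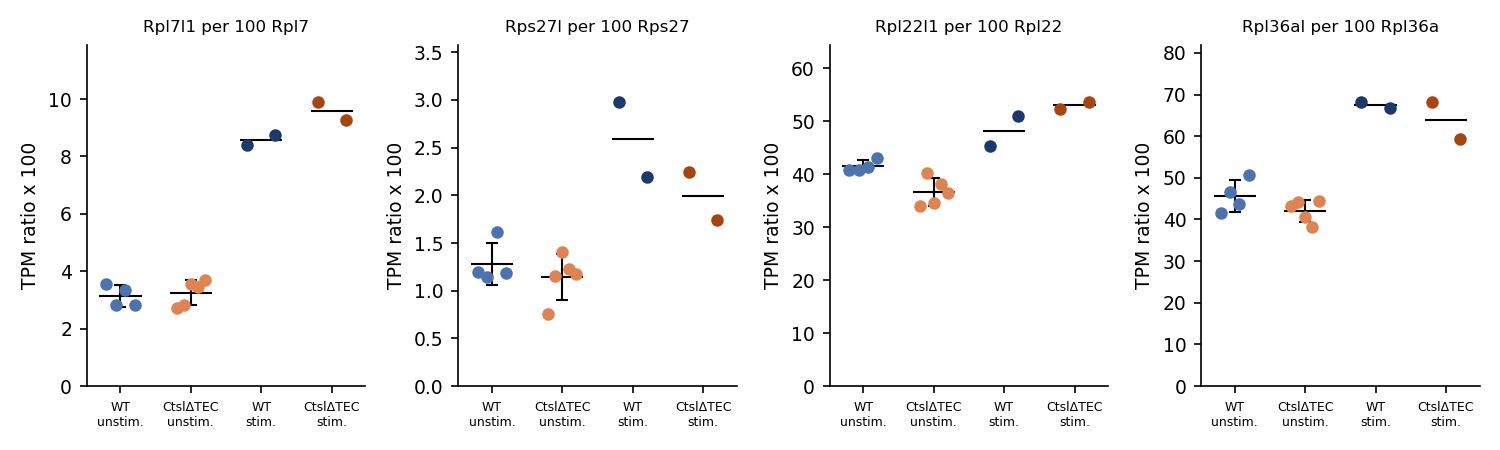
TPM of 4 paralogues per 100 TPM of their partner genes, with 1 point per mouse, group means as lines and the SD as error bars for groups of 4 and 5 mice. In each panel all 4 stimulated libraries lie above all 9 unstimulated ones, for example for Rpl7l1 (2.73 to 3.68 against 8.40 to 9.91).

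Start sites of members that departed from the pool, and of Rps6, whose departure was not called, are printed here because the pyrimidine tract at the first base is what makes a ribosomal protein mRNA a TOP mRNA. RefSeq start sites (GRCm38.p6, an older build than that of the transcriptome used for counting) were matched for 64 of 84 members, giving 76 windows of 30 bases, 10 before and 20 from the annotated start. A tract was scored where a C followed by at least 4 further pyrimidines began within 5 bases of the start, on the coding strand only. It was present in 31 of 76 member windows (40.8%), against 18.3% of the 32851 windows of all genes. The palindrome CACGTG, the E-box bound by Myc and related factors, lay in the 300-base promoters of 10.5% of the member starts and of 7.15% of all. Capitals mark the tract, and bases are given 5′ to 3′.
Rpl13a (chr7:45128726-45128755, minus strand): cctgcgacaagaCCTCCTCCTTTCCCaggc
Rps9 (chr7:3704031-3704060, plus strand): cttgtCTCTCTTTgtctcgggcctgagttc
Rps26 (chr10:128626487-128626516, minus strand): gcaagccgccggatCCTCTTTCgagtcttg
Rps4x (chrX:102189372-102189401, minus strand): gctgggcggagcaacccaggctccagcgcg
Rps7 (chr12:28635934-28635963, minus strand): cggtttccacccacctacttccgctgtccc
Rps3a1 (chr3:86142649-86142678, minus strand): gccggaagggcgaaagagcaagggtcacgt
Rpl15 (chr14:18270967-18270996, minus strand): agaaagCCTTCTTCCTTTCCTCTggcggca
Rps2 (chr17:24720053-24720082, plus strand): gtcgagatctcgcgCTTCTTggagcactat
Rpl22l1 (chr3:28805498-28805527, plus strand): gcgcaagcccgttCTCTTCCCacggctgca
Rps27l (chr9:66946076-66946105, plus strand): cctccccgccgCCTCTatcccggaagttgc
Rpl7l1 (chr17:46782637-46782666, minus strand): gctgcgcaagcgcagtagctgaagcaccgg
Rpl36al (chr12:69184048-69184077, minus strand): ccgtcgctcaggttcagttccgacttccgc
Rps6 (chr4:86857348-86857377, minus strand): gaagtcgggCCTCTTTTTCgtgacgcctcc
Of the 6 members that departed downwards and had a window, Rpl13a, Rps9 and Rps26 had tracts and Rps4x, Rps7 and Rps3a1 had none at these letters and positions. Of the 16 that departed upwards and had a window, 8 had tracts, among them Rpl15, Rps2, Rpl22l1 and Rps27l, and 8 had none, among them Rpl7l1 and Rpl36al. Of 40 members without a called departure 18 had tracts, including Rps6 (departure -0.10, adjusted p = 0.288). Annotated starts may differ from the starts used in thymocytes, and 20 members had no matching entry.

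The transcripts that carried the ribosomal protein counts changed more clearly than the total. Transcripts annotated as retained-intron forms, which keep at least part of an intron and are not annotated as coding, took a small share of the members' TPM that was higher in all stimulated libraries. This share was 1.90, 1.80, 1.67 and 2.43% in unstimulated WT and 2.83, 2.12, 2.56, 1.97 and 1.99% in unstimulated CtslΔTEC cells. In stimulated cells it was 3.57 and 4.48% in WT and 4.76 and 4.91% in CtslΔTEC. No stimulated library overlapped with an unstimulated one, and stimulated WT mouse 5, the shallowest library, was the lowest of the 4. Over all other genes the share was 7.60 to 9.54% in unstimulated and 9.07 to 13.04% in stimulated libraries. The overlap came from stimulated WT mouse 5 alone, and the other 3 stimulated libraries, at 11.9 to 13.04%, stood above all unstimulated ones. The members' share was 0.187 to 0.301 of that of other genes before and 0.376 to 0.394 after stimulation. The share also moved with the file dates among unstimulated libraries, at 2.43 to 2.83% for the first date and 1.67 to 2.12% for the second. The part of library preparation in it was not tested.

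Per gene, 39 of the 64 members with such a transcript had a higher retained-intron share in all 4 stimulated than in all 9 unstimulated libraries, where 13.3% of 5791 genes did, and 0 of the 64 had it lower in all, where 0.967% did. Without stimulated WT mouse 5 the members above were 48, where 26.0% of genes were. Rpl10a went from 9.71% ± 1.02 (SD, n = 9) to 27.2% ± 3.13 (SD, n = 4) and Rpl10 from 8.09% ± 1.48 (SD, n = 9) to 25.1% ± 5.58 (SD, n = 4). For Rpl10a the coding transcript Rpl10a-201 was at 913 to 1260.1 TPM in unstimulated and 922 to 1089 TPM in stimulated libraries, which overlap, while the retained-intron form Rpl10a-206, the most abundant of its kind in this gene, was at 43.00 to 56.9 and 128 to 201 TPM, which do not. Rpl3 went from 3.82% ± 1.21 (SD, n = 9) to 11.4% ± 2.06 (SD, n = 4), Rps7 from 2.26% ± 0.850 (SD, n = 9) to 8.22% ± 1.45 (SD, n = 4) and Rps18 from 2.19% ± 0.368 (SD, n = 9) to 7.39% ± 1.37 (SD, n = 4). In Rps20, Rpl5, Rpl12 and Rps16 the share already stood at 83.7, 63.1, 47.8 and 47.4% in unstimulated cells, and look-alike genes held 9.56, 95.7, 90.2 and 27.7% of the combined counts of these genes.

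A test of transcript usage (edgeR's diffSpliceDGE, adjusted over all 47888 transcripts) asked whether a transcript changed relative to the other transcripts of its gene. It called 203 of 454 member transcripts, where 13.3% of all transcripts were called, and 192 of the 203 were relative rises, where 8.39% of all transcripts rose and 4.94% fell. Of 172 retained-intron transcripts of members, 117 rose and 1 fell, where 11.0% of all retained-intron transcripts rose and 1.56% fell. With transcripts kept only if each library had at least 10 counts, 116 of 137 rose and 0 fell, where 38.4% of all such transcripts rose and 2.34% fell. On simulated data the first filter gave 199 false calls among 47888 transcripts, so the values per library are set beside the test. Rps18-205, a retained-intron form, was at 10.2, 15.3, 15.1 and 13.1 TPM in unstimulated WT and 13.7, 15.8, 14.8, 22.4 and 17.6 TPM in unstimulated CtslΔTEC cells. After stimulation it was at 47.96, 79.2, 71.5 and 82.5 TPM in WT mice 5 and 6 and CtslΔTEC mice 6 and 7, a relative log2 change of 2.16 (adjusted p = 2.95e-11). The states did not overlap. Rps18-203, a processed transcript of the same gene, went from 19.3 ± 3.67 TPM (SD, n = 9) to 72.6 ± 12.98 TPM (SD, n = 4), Rps19-207 from 2.90 ± 0.949 TPM (SD, n = 9) to 16.8 ± 2.51 TPM (SD, n = 4) and Rpl13-202 from 5.96 ± 1.33 TPM (SD, n = 9) to 32.4 ± 4.53 TPM (SD, n = 4). Rps24-212 and the coding transcript Rpl21-203 rose relative to their genes by 1.54 and 1.83 on the log2 scale. All 6 of these transcripts had no overlap between states, and each remained under 100 TPM in genes whose totals exceed 1000 TPM.

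**Figure D4:**
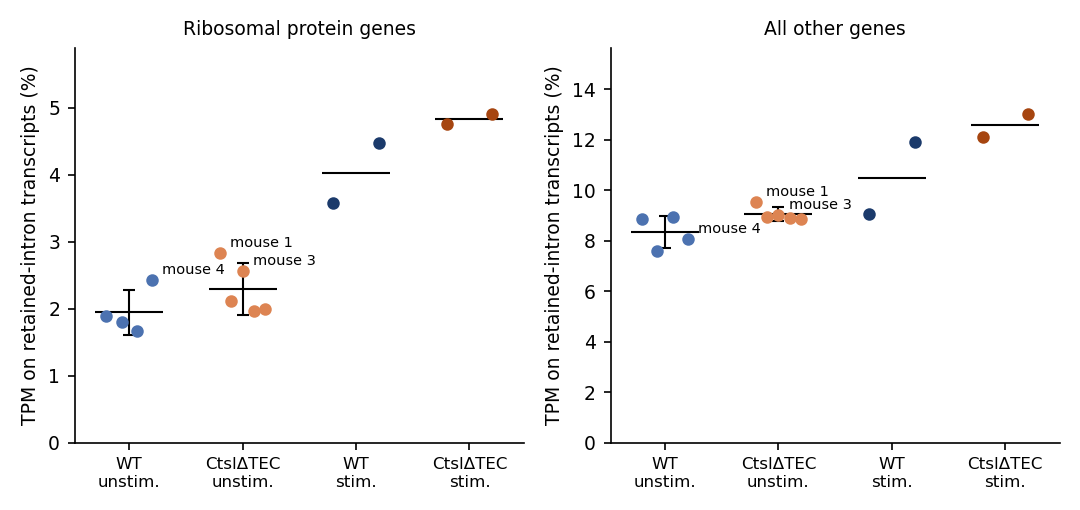
Percent of TPM on retained-intron transcripts, for the ribosomal protein genes (left) and all other genes (right), with 1 point per mouse, group means as lines and the SD as error bars for groups of 4 and 5 mice. Labelled unstimulated mice are those of the first file date. The 4 stimulated libraries (3.57 to 4.91%) lie above the 9 unstimulated ones (1.67 to 2.83%) on the left, and on the right 3 of the 4 (11.9 to 13.04%) do so, while stimulated WT mouse 5 (9.07%) overlaps with them.

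Before stimulation, 13 of 81 members were called lower and 0 higher in CtslΔTEC than in WT cells by the edgeR quasi-likelihood test over the 9 unstimulated libraries, where 8.36% of 13152 genes were lower and 6.42% higher, and 68 members were not called. The 13 became 5 without WT mouse 4 and 0 with the expression of Y-linked genes in the model, which differed between the groups. Values were negative for 78 of 81 members, and the median was -0.17 on the log2 scale, against 0.0096 over all genes. In 10 members (against 7.92% of all genes) all 5 CtslΔTEC libraries were below all 4 WT libraries, and there were 24 (against 9.57%) without WT mouse 3 and 18 (against 10.8%) without CtslΔTEC mouse 1. Called members came from both subunits, with 5 of 32 in the 40S and 7 of 46 in the 60S, and from the P-stalk with Rplp0.

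Rpsa was at 1744, 2115, 1772 and 2106 CPM in WT and 1609, 1511, 1484, 1484 and 1529 CPM in CtslΔTEC cells (log2 -0.34, SE 0.076, adjusted p = 0.0136). The 5 CtslΔTEC libraries lay within a narrow band below all WT libraries. Rplp0, the scaffold of the P-stalk, was at 2352, 2667, 2363 and 2936 CPM in WT and 2165, 2006, 2026, 2075 and 2136 CPM in CtslΔTEC cells (log2 -0.31, SE 0.077, adjusted p = 0.0252), also without overlap. Rpl29, a 60S protein whose loss reduces growth in mice without being lethal, was at 499, 535, 541 and 574 CPM in WT and 487, 375, 389.7, 433 and 436 CPM in CtslΔTEC cells (log2 -0.34, SE 0.082, adjusted p = 0.0215). Here CtslΔTEC mouse 1 came close to WT mouse 1 and the groups did not overlap. Rpl15 was at 543, 598, 522 and 605 CPM in WT and 501, 418, 466, 464 and 474 CPM in CtslΔTEC cells (log2 -0.29, SE 0.072, adjusted p = 0.0263), and the groups did not overlap. With look-alike counts added, Rpl15 was at 651 to 849 CPM in WT and 544 to 656 CPM in CtslΔTEC cells, which overlap. Rps12 had the largest difference but overlapped, since CtslΔTEC mouse 1 (746 CPM) exceeded WT mice 1 and 3 (log2 -0.38, SE 0.12, adjusted p = 0.0668), and it was not called when WT mouse 2 or 4 or CtslΔTEC mouse 2, 3 or 4 was left out (adjusted p = 0.11 to 0.172).

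Other measures moved with genotype in the same 9 libraries. The 7 genes listed for the double-positive stage, such as Cd8a, Cd8b1, Rag1, Dntt and Arpp21, were all detected and summed to 223 to 299 CPM in CtslΔTEC and 52.5 to 76.7 CPM in WT cells. Rag1 was among them although all mice were Rag1-/-. With stimulation the 7 genes summed to 75.2 to 81.2 and 27.1 to 32.2 CPM, below the unstimulated values of the same genotype. Singly, edgeR called 5 of the 7 lower with stimulation and 1 higher (log2 2.83), where 40.3% of all genes fell and 37.2% rose. The Y-linked gene Ddx3y was at 131 to 215 CPM in all 5 CtslΔTEC mice and at 164 CPM in WT mouse 3, but at most 0.0588 CPM in the other 3 WT mice, so that sex largely followed genotype. When the averaged expression of 4 Y-linked genes entered the model, edgeR called 0 of 81 members, with 2 at an unadjusted p under 0.05, and the members' median was -0.00015. Rpsa was then at -0.20 (SE 0.12, adjusted p = 0.596) and Rpl29 at -0.33 (SE 0.14, adjusted p = 0.38). The summed T cell markers were at 5458 to 6017 CPM in CtslΔTEC and 6049 to 6514 CPM in WT cells, the 10 activation genes at 576 to 745 and 853 to 1193 CPM, and the markers of thymic epithelial cells at 3.57 to 5.37 and 2.86 to 3.44 CPM, none of which overlapped. Of the 6 thymic epithelial genes listed, 2 passed the count filter in these 9 libraries. The part of these measures in the difference was not tested. Without WT mouse 4, in which most members were high, 5 members were called lower and the median was -0.076. Without WT mouse 2, CtslΔTEC mouse 2, CtslΔTEC mouse 3 or CtslΔTEC mouse 4 the counts were 7, 6, 5 and 8. With file date as a factor 22 members were lower, and within the second date alone 5 were lower, with a median of -0.081.

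**Figure D5:**
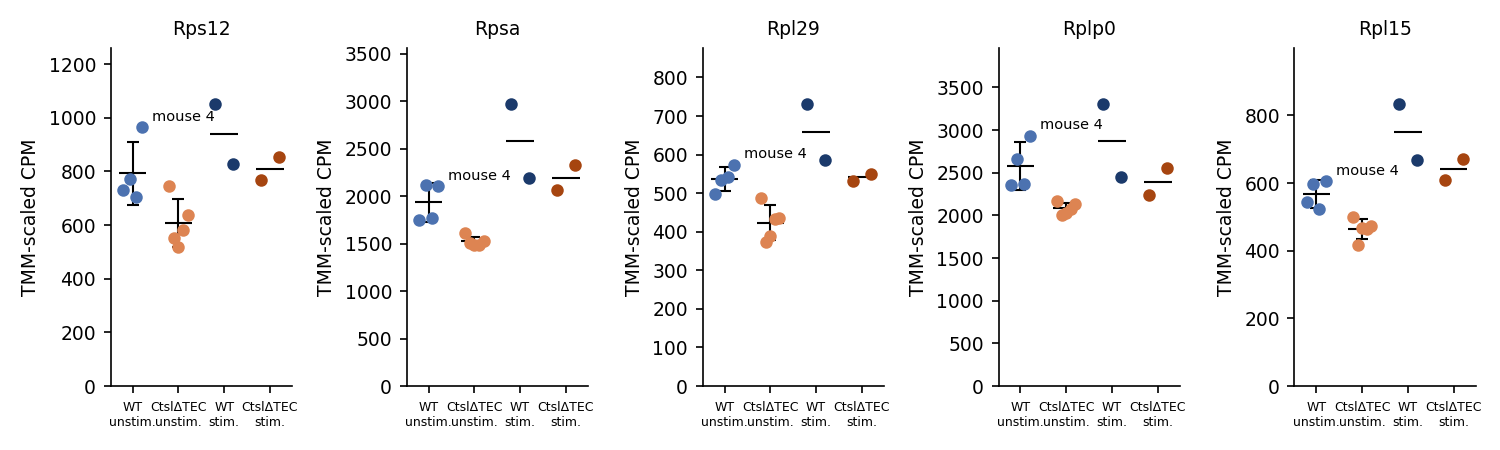
TMM-scaled CPM of the 5 members with the largest called differences between unstimulated CtslΔTEC and WT cells, with stimulated cells beside them, 1 point per mouse, group means as lines and the SD as error bars for groups of 4 and 5 mice. For Rpsa, Rpl29, Rplp0 and Rpl15 the 5 unstimulated CtslΔTEC libraries lie below the 4 WT ones in the counts as deposited, and Rps12 overlaps.

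After stimulation no difference between genotypes was called in any member. edgeR and DESeq2 called 0 of 82, with 1 member at an unadjusted p under 0.05 in edgeR, where 13.3% of all genes were called by edgeR. The median of CtslΔTEC minus WT was -0.048 on the log2 scale and depended on single WT mice, at 0.14 without WT mouse 5 and -0.23, with 7 members called lower, without WT mouse 6. The 2 stimulated WT mice also differed in the Y-linked gene Ddx3y, at 0.248 CPM in mouse 5 and 180 CPM in mouse 6. In stimulated CtslΔTEC mice 6 and 7 it was at 0.0851 and 228 CPM. The part of sex in the genotype difference after stimulation was not tested. For Rpsa the values were 2969.8 and 2197 CPM in WT and 2062 and 2332 CPM in CtslΔTEC cells, which overlap (log2 -0.23, SE 0.14, adjusted p = 0.364). The response to stimulation was called for 25 members in WT and 41 in CtslΔTEC cells, all rises, where 32.9% of all genes rose in either genotype and 34.8% and 38.2% fell. The difference between these responses, tested as an interaction, was called for 0 of 82 members by edgeR and by DESeq2, with 1 at an unadjusted p under 0.05, where 6.01% of all genes were called by edgeR. Its median was 0.12 on the log2 scale, with values positive in 74 of 82 members, and went to -0.059 without stimulated WT mouse 6 and 0.30 without stimulated WT mouse 5. With 2 mice per group these data do not show that the genotypes respond alike. In WT cells the count was 10 without stimulated WT mouse 5, 13 to 16 without unstimulated WT mouse 1, 2 or 3 and 43 without unstimulated WT mouse 4, and in CtslΔTEC cells it was 19 without stimulated CtslΔTEC mouse 7.

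Genes that build the ribosome changed by larger factors under stimulation than most ribosomal protein genes. Of 36 ribosome assembly and rRNA synthesis genes, 35 rose and 1 fell, with a median of 1.80 on the log2 scale, against 0.21 for the ribosomal proteins, where 37.2% of all genes rose and 40.3% fell, a background that holds for each list here. The nucleolar GTPase Gnl3 went from 63.4 ± 4.98 to 534 ± 82.97 CPM (SD, n = 9 and 4), the RNA polymerase I subunit Polr1b from 49.3 ± 4.32 to 348 ± 18.4 CPM, and Mrto4, an assembly factor that holds the place of Rplp0 on the maturing 60S subunit, from 27.5 ± 1.88 to 165 ± 13.2 CPM. Grwd1, a chaperone for Rpl3, went from 28.2 ± 2.68 to 186 ± 11.8 CPM. Ubtf, the activator of rRNA gene promoters, was the one that fell (-0.59, SE 0.076). Of 14 regulators, 11 rose and 2 fell. Myc went from 75.7 ± 8.66 to 1175 ± 156 CPM, Larp1, which represses TOP mRNAs when mTORC1 is off, from 218 ± 11.8 to 779 ± 72.5 CPM, and Rheb, the activator of mTORC1, from 54.2 ± 3.27 to 198 ± 31.98 CPM, while Eif4ebp2 fell by 1.12 on the log2 scale. Of 20 translation factors and related genes, many with TOP mRNAs, 14 rose and 4 fell. Npm1 rose by 1.50 and Hnrnpa1 by 0.99, whereas Eef2, the translocase, fell by 0.43 and Eef1a1, which delivers aminoacyl-tRNA, by 0.22. Of 78 mitochondrial ribosomal proteins 64 rose and 7 fell, with a median of 0.61, led by Mrps18b (2.26) and Mrpl17 (2.23). Among cytosolic genes outside the symbol rule, Rack1, a scaffold protein of the 40S subunit, rose by 0.23, and Fau, which encodes Rps30 fused to a ubiquitin-like protein, was at 0.13 and not called (adjusted p = 0.325). The adjusted p of every gene called here was at most 0.0208 by edgeR over all genes.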

How the data were processed

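RNA of 13 samples was quantified by the authors with kallisto 0.48 against Ensembl 106 transcripts, and estimated counts, TPM and effective transcript lengths were deposited for each library. The labels name polyA RNA and the methods of the study ribosomal RNA depletion, so the selection is not settled here. Estimated counts hold 8085463 to 39127833 reads per library. As deposited, reads shared between a gene and its processed copies are divided between them by the estimation, which affects the gene totals of Rpl5, Rpl12, Rpl27a, Rps23 and Rpl10 among others.

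Of 117497 transcripts, 116397 (99.1%) were paired with genes through a GENCODE M21 annotation of GRCm38, which is older than Ensembl 106, and the 1100 unpaired ones held no more than 0.461% of any library's counts. Estimated counts were summed to genes and rounded, and TPM were summed. Groups followed the labels. Nothing shows whether the mice of a group were prepared independently, so p-values measure the spread between these samples. Genes were kept by filterByExpr and tested with the quasi-likelihood test of edgeR 4.0.16 in R 4.3.3 with TMM factors and Benjamini-Hochberg adjustment over all genes tested at 0.1. The response, the genotype difference after stimulation and their interaction came from 1 model of the 4 groups, and the unstimulated genotype difference from a fit of 9 libraries. Departure from the pool used the members' summed counts as library size. CPM are scaled by TMM factors, except the Y-linked values, which are scaled by library totals. The members, gene lists and tests were chosen with earlier results of these data known.

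Members were named if they were not kept by the filter, were among the 6 largest called rises, falls or departures, the 5 largest called genotype differences without stimulation or the 4 largest with it or in the interaction, were paralogues, P-stalk genes, Rpsa, Rps6, Rpl5 or Rpl11, had one of the 5 highest or lowest mean levels or one of the 6 transcripts with the smallest p in usage. In other lists the 3 genes with the smallest p and Fau, Rack1 and Myc were named. Some genes that this rule reaches are not reported here. Rps2, Rpl10a, Rpl17, Rpl23a, Rpl27a, Rps16, Rps20, Rps23, Rps26, Rps28, Polr1b, Ubtf, Eif4ebp2, Eef2 and Eef1a1 were named after their values were seen.

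On simulated counts for the response, 47 of 100 genes changed by 0.5 and 79 of 100 changed by 1 on the log2 scale were recovered, with 15 false calls among 14241 genes. For the unstimulated genotype difference these were 50 and 76 of 100, with 16 false calls among 13152 genes. In both simulations only the stated genes changed, in equal numbers up and down. In the data 77.5% of genes were called for the response and 14.8% for the unstimulated genotype difference. The simulations thus do not measure recovery or false calls where as many genes change as in the data. For the departure, 6 of 10 and 10 of 10 were recovered with 38 false calls among 14241 genes. The false calls outnumbered the recovered members, and how many of them fell on members was not counted. For transcript usage, 8 of 100 transcripts were recovered at a log2 change of 1 and 79 of 100 at 2, with 199 false calls among 47888, and with at least 10 counts in every library 49 and 99 of 100, with 25 false calls among 19867. Alternatives were another scaling, filter, threshold, length offset, DESeq2 1.42.0, date, look-alike counts, coding transcripts, a Y-linked covariate and the omission of each mouse, of which look-alike counts, coding transcripts and the covariate were added after the data had been seen. Same-numbered WT and CtslΔTEC mice did not deviate together (correlations -0.28, 0.503, -0.151 and -0.279), so the numbers were not treated as pairs.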

Additional observations from a re-analysis of the deposited data

Results flagged for a closer look

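Within the unstimulated groups, 76 sets of 4 or 5 mice were searched by Dixon's ratio for 1 mouse standing apart, which chance alone passes in about 1 set in 20, and 7 passed. WT mouse 4 stood above the other 3 WT mice in 5 of them, with Rps9 at 1563 CPM (others 1121 to 1178), Rps7 at 1398 CPM (1069 to 1105), Rps18 at 1154 CPM (888 to 927), Rpl36al at 168 CPM (121 to 125) and Rpl12 at 138 CPM (99.0 to 105). This mouse is the only WT mouse of the first file date. Rpl12 was also high in CtslΔTEC mouse 1, at 162 CPM against 97.8 to 114 in the others, and look-alike genes held most of the combined counts of Rpl12. The share of TPM held by ribosomal protein genes was low in CtslΔTEC mouse 2, at 15.9% against 18.4 to 19.4% in the others.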

How the results depend on the processing

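For 23 values of named members the alternatives gave 512 values, of which 489 kept direction and side of the threshold, 19 kept the direction but were no longer called and 4 reversed. The 4 were the departures of Rpl12 (-0.081) and Rpl5 (-0.13) with look-alike counts added, and of Rpl12 (-0.17) and Rpl5 (-0.12) with coding transcripts and look-alikes, which follows from where the reads of their copies are counted. Called members in the WT response were 15 at an adjusted p of 0.05, 15 by library totals, 14 by upper-quartile factors and 45 against the second file date alone, and in the CtslΔTEC response 24 by library totals. The unstimulated genotype difference, with 13 called, gave 5 at an adjusted p of 0.05, 6 by library totals, 20 with a transcript length offset, 22 with date as a factor, 5 within the second date, 6 in the 4-group model and 0 with the Y-linked covariate, where the median was -0.00015. The cause of these shifts was not tested. With the mouse number as a replicate block 3 were called, and since the numbers did not pair the mice this is given as a count alone. Leaving out each mouse in turn gave 31 to 56 called members for the response in both genotypes (median 0.10 to 0.29), 10 to 43 in WT (-0.037 to 0.33), 19 to 50 in CtslΔTEC (0.21 to 0.33), 5 to 17 for genotype without stimulation (-0.21 to -0.076), 0 to 7 with it (-0.23 to 0.14), 0 to 0 for the interaction (-0.059 to 0.30), 22 to 28 departures, 153 to 223 transcripts and 0.0061 to 0.099 for the log2 ratio of the share. In counts added after the data had been seen, it gave 9 to 23 members with all stimulated above all unstimulated libraries, 14 to 16 above and 7 to 9 below relative to the pool, 39 to 48 by retained-intron share, and 10 to 24 with CtslΔTEC below WT. Where this left 1 stimulated mouse in a group, its spread was taken from the other groups. The shallowest library, stimulated WT mouse 5, was also the one with the highest members.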
